A study of Mus musculus with 15 samples.

Results

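Water and sodium handling genes of the kidney collecting duct were followed through the 4 sample groups of a mouse kidney array study. The 10 genes are Aqp2, Aqp3, Aqp4, Avpr2, Scnn1a, Scnn1b, Scnn1g, Hsd11b2, Elf5 and Gata2, out of 19938 genes with a probe set of their own. Each was taken by its symbol in the platform annotation, and all 10 had exactly 1 such probe set, so no choice between probe sets was needed. Adult animals were males carrying a Ren1c-YFP reporter, which marks renin cells. From them came 5 single juxtaglomerular (JG) cells, picked under a fluorescence microscope with glass needles after enzyme digestion of the cortex (their dissection notes name a Ren1d GFP line instead). The other adult samples were lysed cortex of mixed cell types with the medulla cut away, as 3 libraries of diluted cortex amplified with the single cell protocol (32 rounds in the labels, as for all cells) and 3 standard-labelled libraries made with a NuGEN kit (1 round). The embryonic group held 4 single metanephric mesenchyme (MM) cells of embryonic day 11.5, picked from Crym-GFP mice of unknown sex. No label names the animal of a cell, the strain is unspecified throughout, and the reporter of the adult line was carried by the cortex donors too. Values are log2 probe set signals as deposited.

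In the collecting duct, principal cells take up water and sodium under hormonal control. Vasopressin binds the receptor encoded by Avpr2 and raises cAMP, which brings the water channel Aqp2 to the luminal membrane, while Aqp3 and Aqp4 let water out on the blood side. Aldosterone raises the activity of the epithelial sodium channel, built from the subunits Scnn1a, Scnn1b and Scnn1g, and Hsd11b2 inactivates glucocorticoids that would otherwise occupy the aldosterone receptor. Elf5 and Gata2 are transcription factors of principal cells in the mouse, and Gata2 is known to act on Aqp2 there.

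The arrays differed in background. A gene was called above background on an array where it exceeded the 99th percentile of 1190 olfactory and vomeronasal receptor genes, a class taken here as the level of genes not in use. That level ran between 7.56 and 7.94 in JG cells, between 6.19 and 6.31 in diluted cortex, between 6.31 and 6.52 in standard-labelled cortex and between 7.15 and 7.57 in MM cells. Genes above it made up 6.70% to 14.2%, 48.2% to 50.3%, 43.7% to 48.1% and 10.8% to 20.7% of all genes in the same 4 groups. Of 15 proximal tubule markers, all 15 were above background in each cortex library, against 0 to 3 in a JG cell and 1 to 3 in an MM cell. Of 12 JG and muscle markers, 9 were measured and Ren1, Ren2 and Akr1b7 had no probe set of their own, so renin itself could not check the JG label. Of the 9, 3, 2, 3, 5 and 3 were above background in JG cells 4 to 8. Mgp and Crip1 were above it in all 5 cells, at 13.17 to 13.46 and 11.96 to 13.01, and the muscle genes Myh11, Cnn1 and Tagln and the mural cell receptor Pdgfrb in 0. Of the remaining markers, Rgs5 was above it in JG cells 4, 6 and 7, at 10.44, 9.76 and 10.55. Acta2 was above it in JG cells 7 and 8, at 12.20 and 11.32, and Myl9 in JG cell 7, at 12.79. Six2, a nephron progenitor factor, measured 10.13 in MM cell 16, 7.53 in MM cell 14, 7.18 in MM cell 15 and 6.69 in MM cell 19. Crym, whose regulatory sequence drives the reporter of the MM cells, measured 6.90 to 8.61 in MM cells and was brighter in diluted cortex, at 11.02 to 11.20.

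Upstream sequences are shown for 3 genes, one each for the water channel, the vasopressin receptor and a sodium channel subunit. These 3 were all higher in diluted than in standard-labelled cortex. So were Aqp3 and Gata2, whose windows were searched but are not shown. The sequences are the 250 bases before the RefSeq start (build GRCm38.p6, gene strand, 5′ to 3′). Capitals mark the 6-letter motifs searched on both strands: AGATAA, a form of the motif of GATA factors, and its variant TGATAA; the core of the cAMP response element, TGACGT; the motif of ETS factors such as Elf5, AGGAAG; and the half-site of steroid receptors, AGAACA.
Aqp2 (chr15:99578806-99579055, plus strand): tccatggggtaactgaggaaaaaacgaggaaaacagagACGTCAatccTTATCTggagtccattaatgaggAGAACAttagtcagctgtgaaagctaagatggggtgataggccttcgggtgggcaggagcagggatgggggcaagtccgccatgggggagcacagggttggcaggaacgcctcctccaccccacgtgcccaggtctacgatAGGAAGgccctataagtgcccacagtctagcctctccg
Avpr2 (chrX:73891852-73892101, plus strand): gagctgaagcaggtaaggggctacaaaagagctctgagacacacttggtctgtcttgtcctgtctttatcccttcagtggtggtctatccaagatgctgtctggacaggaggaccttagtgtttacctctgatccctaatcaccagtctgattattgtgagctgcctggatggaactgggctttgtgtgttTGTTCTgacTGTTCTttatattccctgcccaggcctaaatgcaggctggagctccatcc
Scnn1b (chr7:121864788-121865037, plus strand): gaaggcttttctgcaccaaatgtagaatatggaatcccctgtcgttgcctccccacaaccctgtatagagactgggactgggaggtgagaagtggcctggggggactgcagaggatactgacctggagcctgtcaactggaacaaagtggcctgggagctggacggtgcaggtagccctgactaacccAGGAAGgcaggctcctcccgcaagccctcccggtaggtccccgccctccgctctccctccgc

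The Aqp2 window held 4 of the 5 motifs, none of them overlapping another. Counted back from the start, the cAMP element core stood at -212 to -207 and AGATAA at -202 to -197, both on the reverse strand, the half-site at -179 to -174 and the ETS motif at -38 to -33. Avpr2 held 2 half-sites on the reverse strand, at -59 to -54 and -50 to -45, and Scnn1b held 1 ETS motif at -62 to -57. Among 32851 windows of the same length, 9.99% held AGATAA, 7.94% TGATAA, 6.47% TGACGT, 29.5% AGGAAG and 16.1% AGAACA. Over the 9 windows of 7 genes of the set that were searched, AGATAA and TGACGT were found in 1 each, TGATAA in 0, and AGGAAG and AGAACA in 2 each. All of these were in the windows shown, and those of Aqp3, Gata2, Scnn1g and Elf5 held no match. These matches describe letters only.

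Aqp2 was by far brightest in diluted cortex. It measured 8.94, 8.97, 8.69, 8.67 and 8.86 in JG cells 4 to 8, 11.82, 12.17 and 12.08 in diluted cortex libraries A, B and C, 7.48, 7.53 and 7.55 in standard-labelled libraries A, B and C, and 8.23, 8.34, 8.50 and 8.15 in MM cells 14, 15, 16 and 19. No 2 groups overlapped, in the order diluted cortex, JG cells, MM cells and standard-labelled cortex. Outside diluted cortex the gene held a nearly fixed distance from background: it lay 0.93 to 1.30 above the receptor 99th percentile in JG cells, 0.96 to 1.24 in standard-labelled cortex and 0.93 to 1.07 in MM cells, against 5.63 to 5.88 in diluted cortex. The highest single receptor was exceeded in 2 of 5 JG cells, 3 of 3 diluted libraries, 1 of 3 standard-labelled libraries and 0 of 4 MM cells.

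Aqp3 kept the same order of groups, with smaller distances. It averaged 7.67 ± 0.18 in JG cells (SD over 5 cells), 9.42 ± 0.05 in diluted cortex (SD, n = 3), 6.54 ± 0.09 in standard-labelled cortex (SD, n = 3) and 7.35 ± 0.12 in MM cells (SD over 4 cells). The 4 groups did not overlap, but only 2 of 5 JG cells and 2 of 4 MM cells were above background. Receptor genes differed between these groups too. Their median difference was 0.99 for JG cells minus standard-labelled cortex and -0.78 for standard-labelled cortex minus MM cells. With that taken off, Aqp3 differed by 0.14 and -0.022 in the same 2 comparisons. Aqp4 lay below background on all 15 arrays, between 5.31 and 6.23, so this water channel was not detectable here in any group.

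The vasopressin receptor gene Avpr2 measured 9.20, 9.75 and 9.45 in diluted cortex, 6.84, 7.62 and 7.36 in standard-labelled cortex, 6.32 to 7.16 in JG cells and 6.13 to 6.88 in MM cells. All 9 cells lay below background and all 6 cortex libraries above it. Standard-labelled cortex overlapped with JG cells, through library A.

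The 3 sodium channel subunits differed from each other in how the cortex groups compared. Scnn1a, the subunit the channel cannot do without, measured 8.72, 8.73 and 8.86 in diluted cortex and 8.26, 8.87 and 8.84 in standard-labelled cortex, which overlapped. Scnn1b measured 9.81, 9.50 and 9.63 in diluted cortex and only 7.07, 7.31 and 7.31 in standard-labelled cortex, which did not. Scnn1g, the neighbour of Scnn1b on the RefSeq assembly, measured 7.85, 7.41 and 7.61 in diluted cortex and 7.55, 7.74 and 7.94 in standard-labelled cortex, again overlapping. In cells all 3 stayed below background: the highest value was 6.71 for Scnn1a (JG cell 5), 6.63 for Scnn1b (JG cell 6) and 6.85 for Scnn1g (MM cell 15). JG and MM cells overlapped for each subunit, and both groups of cells lay below both cortex groups without overlap.

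Hsd11b2 was the gene of the set that varied most among single cells of 1 group. It measured 7.79, 7.53, 6.997, 8.14 and 7.71 in JG cells 4 to 8, 11.34, 11.54 and 11.41 in diluted cortex, 7.60, 7.68 and 7.70 in standard-labelled cortex, and 8.45, 11.24, 7.92 and 11.01 in MM cells 14, 15, 16 and 19. MM cells 15 and 19 thus lay just under the diluted libraries, MM cell 16 within the range of the JG cells and MM cell 14 a little above it. The SD over MM cells was 1.72, against 0.42 over JG cells and 0.10 over diluted libraries.

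**Figure D1:**
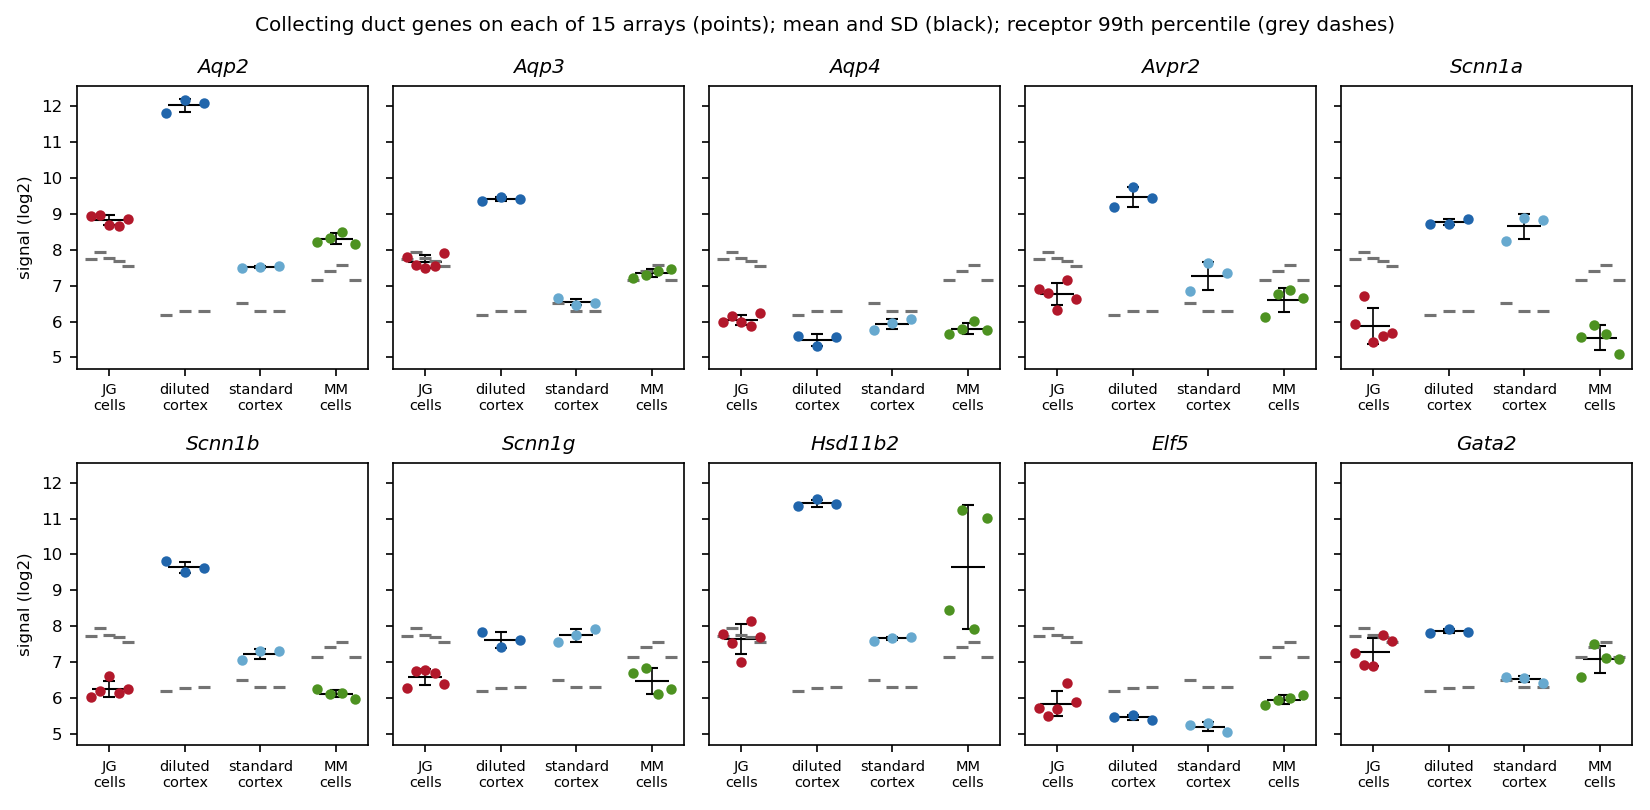
Each panel gives 1 gene, with the log2 signal on the y axis and JG cells, diluted cortex, standard-labelled cortex and MM cells on the x axis. Coloured points are arrays, black marks the group mean and SD, and grey dashes the receptor 99th percentile of each array. Aqp2 in diluted cortex (11.82 to 12.17) stands apart from all other arrays, and Hsd11b2 splits the 4 MM cells.

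Both transcription factor genes were dim. Elf5 lay below background on all 15 arrays, between 5.05 and 6.43. Gata2 averaged 7.29 ± 0.39 in JG cells (SD over 5 cells), 7.87 ± 0.05 in diluted cortex (SD, n = 3), 6.52 ± 0.08 in standard-labelled cortex (SD, n = 3) and 7.08 ± 0.38 in MM cells (SD over 4 cells). It was above background in all 6 cortex libraries, in JG cells 7 and 8 and in MM cell 15. Only diluted cortex stood apart from its neighbour in the order of groups.

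In all, 8 of the 10 genes were above background in all 3 diluted libraries (45.8% of all genes were) and 8 in all 3 standard-labelled libraries (42.7%). For single cells the count was 4 of 10 in at least 1 JG cell (21.1% of all genes) and 4 of 10 in at least 1 MM cell (30.4%). Only Aqp2 was above background in all 5 JG cells (3.31% of all genes), and Aqp2 and Hsd11b2 in all 4 MM cells (6.51%). Diluted cortex had the highest mean of the 4 groups for 7 genes of the set, as for 22.8% of all genes. The exceptions were Aqp4 and Elf5, which were at background, and Scnn1g.

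Diluted and standard-labelled cortex are both mixed adult cortex and were labelled by different methods. No label says that they share tissue, so dilution, labelling method and tissue sample cannot be told apart in this comparison. By limma with Benjamini-Hochberg adjustment over 19531 probe sets, 6 genes were higher in diluted cortex. That direction was called for 38% of probe sets, and 74.7% were called in either direction. Counted by gene, as for the set, 5463 of 12828 genes tested were higher and 4189 lower. Aqp2 was higher by 4.50 ± 0.11 (SE, log2; limma adjusted p = 4.37e-08), and 0.128% of the probe sets tested differed by as much in that direction. Hsd11b2 was higher by 3.77 ± 0.09 (limma adjusted p = 4.34e-08), which 0.532% reached. Aqp3 was higher by 2.87 ± 0.09, Scnn1b by 2.41 ± 0.12, Avpr2 by 2.19 ± 0.22 and Gata2 by 1.35 ± 0.09 (limma adjusted p between 8.77e-08 and 3.33e-05). A rise of 2 log2 units or more was called for 7.37% of probe sets and for 5 of these genes. That number was 4 without standard-labelled library A, where Avpr2 was at 1.97. It was 2 after quantile normalization over all 15 arrays, with Aqp3 at 1.95, Scnn1b at 1.65 and Avpr2 at 1.47. The shares of probe sets under these settings are not given here. Without regard to call, the median difference of the 9 genes tested was 2.19, beside 0.12 over all genes tested.

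Scnn1a and Scnn1g did not pass the test. Scnn1a differed by 0.12 (95% interval -0.27 to 0.50, limma adjusted p = 0.547) and its sign turned under 2 other scalings and without standard-labelled library A. Scnn1g differed by -0.12 (95% interval -0.45 to 0.22, limma adjusted p = 0.470). Both intervals leave out the difference of 2.41 seen for Scnn1b, their partner in the channel. Aqp4 passed downward (limma adjusted p = 0.0113), as 36.7% of probe sets did, but it lay below background in both groups, so no fold is given, and the call was lost after quantile normalization (limma adjusted p = 0.129 and 0.125). Elf5 was too dim to be tested. In bulk samples, fewer cells of a type and less RNA per cell cannot be told apart, and nothing says that the libraries came from separate animals, so these p-values may measure technical spread.

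**Figure D2:**
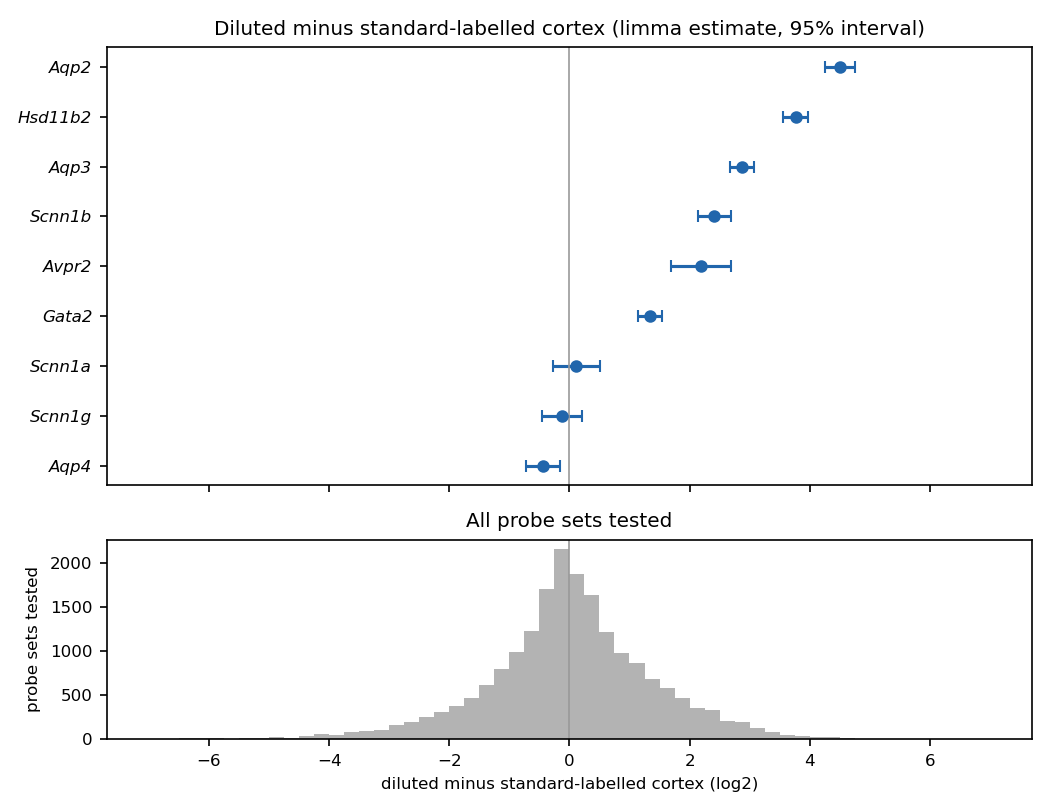
The upper panel gives the limma estimate of diluted minus standard-labelled cortex (log2, x axis) with its 95% interval for the 9 genes tested, and the lower panel the same difference for all 19531 probe sets tested. Aqp2 (4.50) and Hsd11b2 (3.77) lie in the far right tail, while Scnn1a and Scnn1g lie at 0.

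Other genes of the collecting duct differed in both directions between diluted and standard-labelled cortex. Of 16 further principal cell and collecting duct genes, 9 were higher and 6 lower in diluted cortex, with a median difference of 1.07. Elf3, a relative of Elf5, and the tight junction gene Cldn4 were above background in 0 of 3 standard-labelled libraries, so their differences are limits, and they were higher in diluted cortex by at least 2.35 and at least 2.56. These limits take the receptor 99th percentile for the dimmer side of each array where the gene lay under it. The homeobox gene Emx1 was higher by 2.80, while the adhesion gene Cdh1 fell by 1.60 and the transcription factor gene Tfcp2l1 by 1.41. Among 11 aldosterone and sodium channel control genes, 5 were higher and 4 lower. Prss8, a membrane protease that activates the sodium channel, was higher by 3.58, but the kinase gene Wnk1, above background in 0 of 3 diluted libraries, was brighter in standard-labelled cortex by at least 4.14. The glucocorticoid receptor Nr3c1 fell by 2.61 and the ubiquitin ligase gene Nedd4l, which removes the channel from the membrane, by 1.00. The aldosterone receptor Nr3c2 was at or below background, at 5.73, 6.33 and 6.18 in diluted cortex libraries A, B and C, of which only B exceeded it, and at 5.50, 5.76 and 5.84 in the standard-labelled ones.

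Of 9 tested vasopressin and cAMP genes, 2 were higher and 6 lower in diluted cortex. The PKA anchor Akap1 was higher by 1.93, while the PKA subunit Prkar2a fell by 1.72. The anchor Akap13, above background in 0 of 3 diluted libraries, was brighter in standard-labelled cortex by at least 1.64, and the cAMP responsive factor Creb1 fell by 2.25, with only 1 of 3 diluted libraries above background. Of 7 tested other aquaporins, 2 were higher, the proximal tubule water channel Aqp1 by 2.16 and the intercalated cell channel Aqp6 by 0.45. Aqp11, a channel of intracellular membranes, differed by -0.14 (limma adjusted p = 0.17) and was bright in both cortex groups, with means of 10.82 and 10.96. Of 12 intercalated cell genes, the neighbours of principal cells, 8 were higher and 3 lower. Among sodium pump and potassium channel partners, 1 was higher (Fxyd4, a pump regulator of the collecting duct, by 1.41) and 2 lower of 5 tested. Calls in these lists are counted by gene. They are to be read against all genes tested alike, of which 5463 of 12828 were higher and 4189 lower.

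JG cells were set against diluted cortex because the labels say that both were amplified alike for that purpose. As the cells count as 1 sample, there is no test. Receptor genes were 1.02 higher in JG cells (their median difference), and differences are given beyond that shift. Then 8 of 10 genes lay at least 1 log2 unit lower in JG cells, as 40.8% of all genes did, and 0 lay as far above it (0.587% of all genes). Beyond the shift, the difference was -4.82 for Hsd11b2, -4.22 for Aqp2, -2.77 for Aqp3 and -1.60 for Gata2. Before the shift is taken off, these 4 differences were -3.79, -3.20, -1.75 and -0.58. Quantile normalization over all 15 arrays brought them to -2.59, -1.83, -0.20 and 0.19, turning Gata2, and the count of 8 to 6. The share of all genes under that scaling is not given here, so the 6 is not to be read against 40.8%. Avpr2 and the 3 subunits were below background in every JG cell, so only limits can be given for them, as plain differences: diluted cortex was brighter by at least 1.91 for Scnn1b, at least 1.72 for Avpr2 and at least 1.03 for Scnn1a, and for Scnn1g, whose diluted mean lies under the background of the JG cells, no limit is given. Of those 8 genes, all 5 JG cells lay below all 3 diluted libraries for each, a pattern seen in 29.3% of all genes. Aqp4, below background in both groups, showed the opposite pattern, as 49.8% of all genes did.

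Set against standard-labelled cortex the same cells looked different. With a receptor shift of 0.99 there, 5 of 10 genes were lower by 1 log2 unit or more beyond it (36.5% of all genes were) and 0 higher (1.04%). These were Hsd11b2, at -1.01, and Avpr2 and the 3 subunits, which no JG cell had above background. Of those 4, standard-labelled cortex was brighter by at least 0.92 for Scnn1a, and the limit was near 0 or could not be given for the other 3. All JG cells lay below all standard-labelled libraries for the 3 subunits (26.9% of all genes) and above them for Aqp2, Aqp3, Gata2 and, below background in both groups, Elf5 (52%). Aqp2 and Aqp3 lay 0.32 and 0.14 above the shift, and their plain differences were 1.30 and 1.12, of opposite sign to those against diluted cortex. The plain differences of both water channels thus differed in sign between the 2 cortex groups. Beyond the shift, neither reached 1 log2 unit against standard-labelled cortex. Between JG cells and MM cells, both amplified alone, the difference beyond a shift of 0.22 was 0.30 for Aqp2, 0.10 for Aqp3 and 0.0015 for Gata2. The other genes except Hsd11b2 were above background in 0 cells of either group, so no difference is given for them. Hsd11b2 differed by -2.24 (10.8% of all genes lay at least 1 log2 unit lower beyond the shift, and 0.732% as far above, where the set had 0). The 2 groups overlapped for Hsd11b2, and the MM mean rests on cells 15 and 19, at 11.24 and 11.01. MM cells 14 and 16 measured 8.45 and 7.92, and JG cells 6.997 to 8.14. All JG cells lay above all MM cells for Aqp2 and Aqp3 (6.86% of all genes) and below them for 0 of the 10 (1.13%).

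**Figure D3:**
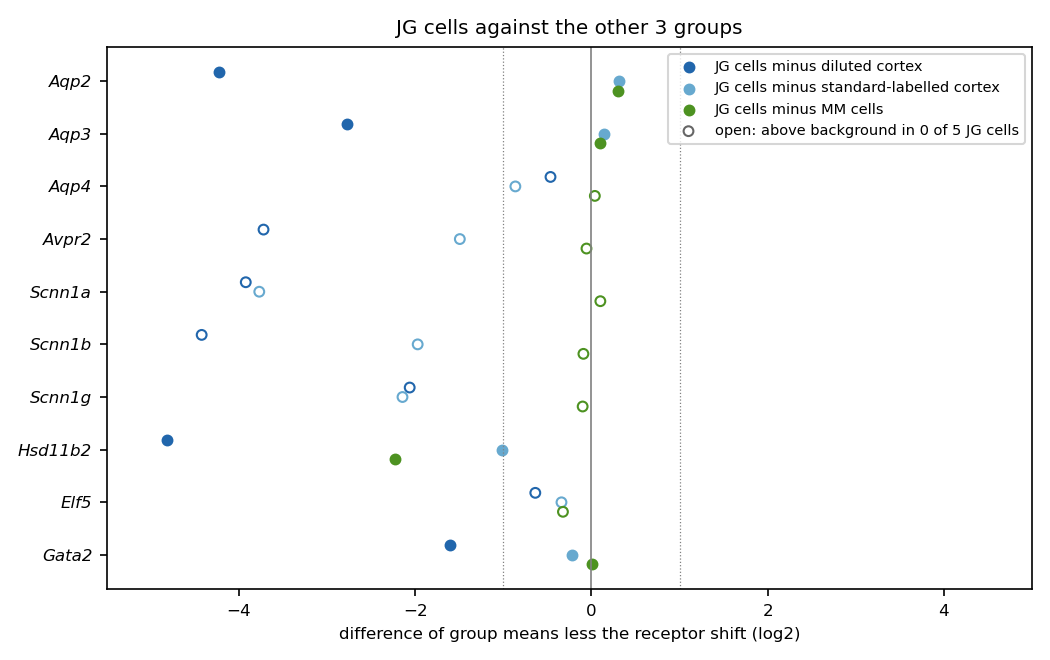
For each gene (y axis) the x axis gives the mean of JG cells minus that of diluted cortex (dark blue), standard-labelled cortex (light blue) or MM cells (green), less the median difference of the receptors (log2), with dotted lines at 1 unit either side. Open symbols mark genes above background in 0 of 5 JG cells, for which the JG side is not above background. Aqp2 lies at -4.22 against diluted and at 0.32 against standard-labelled cortex.

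Single genes of other tubule segments were bright in JG cell 5, where 3 of 15 proximal tubule and 2 of 11 thick ascending limb and distal tubule markers were above background. JG cell 8 had the same counts, 3 of 15 and 2 of 11. The sodium pump regulator Fxyd2 measured 12.30 in JG cell 5, while the remaining JG cells lay between 7.91 and 8.54. The proximal tubule enzyme Miox measured 12.63 there, while the remaining JG cells lay between 6.28 and 7.40. The calcium binding protein S100g of the distal tubule measured 13.05 in JG cell 5 and 13.07 in JG cell 8. Of the 10 collecting duct genes, only Aqp2 was above background in JG cell 5. Of 16 further principal cell genes, 1, 1, 1, 2 and 4 were above background in JG cells 4 to 8, against 14 or 15 in each diluted library. JG cell 8, where 4 genes of the set were above background, also had the most genes above background of the intercalated cell (3 of 12), ureteric bud (5 of 15) and metanephric mesenchyme (6 of 12) lists among JG cells. It had the largest share of all genes above background as well, 14.2% against 6.70% to 10.7% in the other JG cells, and their part in its values was not tested. Without JG cell 5, or any other single JG cell, the count below diluted cortex remained 8.

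Diluted cortex was set against MM cells, adult tissue against embryonic cells amplified alike, again with no test. Receptors differed by -0.81. Beyond that shift, 8 of 10 genes were at least 1 log2 unit higher in diluted cortex, as 36.9% of all genes were, and 0 were as far below (0.787%). Aqp2 was higher by 4.53, Aqp3 by 2.88, Hsd11b2 by 2.59 and Gata2 by 1.61. Before the shift is taken off, Aqp2, Aqp3 and Gata2 differed by 3.72, 2.07 and 0.79. Aqp3 was above background in 2 and Gata2 in 1 of the 4 MM cells. Avpr2 and the 3 subunits were above it in 0 of 4, and diluted cortex was brighter, as plain differences, by at least 2.33 for Scnn1b, at least 2.14 for Avpr2, at least 1.45 for Scnn1a and at least 0.30 for Scnn1g. For Hsd11b2 the plain difference was 1.77, and it was 3.24 with MM cells 15 and 19 left out together, an alternative added after their values were seen. The libraries of diluted cortex lay above all MM cells without overlap for 8 genes (24% of all genes) and below them for Aqp4 and Elf5 (47%). The count of 8 was 4 with standard-labelled cortex in place of diluted cortex and 5 after quantile normalization. For the 5, the share of all genes under that scaling is not given here. With standard-labelled cortex, 32.5% of all genes were as far above the shift of -0.78 and 2.38% as far below, where Hsd11b2 lay. The MM mean of Hsd11b2 there includes cells 15 and 19, at 11.24 and 11.01, beside 8.45 and 7.92 in cells 14 and 16. Without overlap, standard-labelled libraries lay above MM cells for the 3 subunits (23.5% of all genes) and below them for Aqp2, Aqp3, Hsd11b2 and Elf5 (47.8%).

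MM cells 15 and 19 were looked at further for Hsd11b2. The collecting duct grows from the ureteric bud in the embryo. Of its markers, Ret, the bud's growth factor receptor, measured 6.39 and 5.99 and Wnt11, a signal of its tips, 6.95 and 6.71 in cells 15 and 19. Both genes were below background in all 4 MM cells. Of 15 measured ureteric bud genes, 5 and 4 were above background in cells 15 and 19, against 6 and 7 in cells 14 and 16. The share of all genes above background was 15.6% and 20.7% in cells 15 and 19, against 20.5% and 10.8% in cells 14 and 16. Of the other genes of the set, Aqp2 was 8.34 and 8.15 in these cells and 8.23 and 8.50 in cells 14 and 16, and the Scnn1 subunits stayed below background in all 4. Single genes were bright in 1 of these cells, such as the growth factor Bmp7 (11.16) in cell 15. In cell 19 the stromal factor Foxd1 measured 11.33, and it was above background in cell 14 too, at 9.03. Of the bud genes, the transcription factors Sox9 and Gata3 were bright in cell 19, at 10.68 and 9.41. Sox9 was above background in all 4 MM cells, at 8.22 in cell 14, where the bud gene Etv4 measured 8.87. Bmp7 is on the bud list too. The part of any other cell type in the Hsd11b2 values was not tested.

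Over the 9 cells the genes whose pattern was most like Hsd11b2, by Pearson correlation, were Fbxl6 (0.98), Pdlim4 (0.97) and Cdt1 (0.97), the last a licensing factor of DNA replication. Cdt1 measured 8.20, 11.75, 7.17 and 10.63 in MM cells 14, 15, 16 and 19, against 6.70 to 6.99 in JG cells. Pdlim4, a LIM domain protein gene, measured 8.14, 11.10, 7.08 and 10.99 in the same 4 MM cells. The same 2 MM cells were the brightest for all 3 genes. These correlations were picked as the highest among 10886 genes and describe the 9 cells only.

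**Figure D4:**
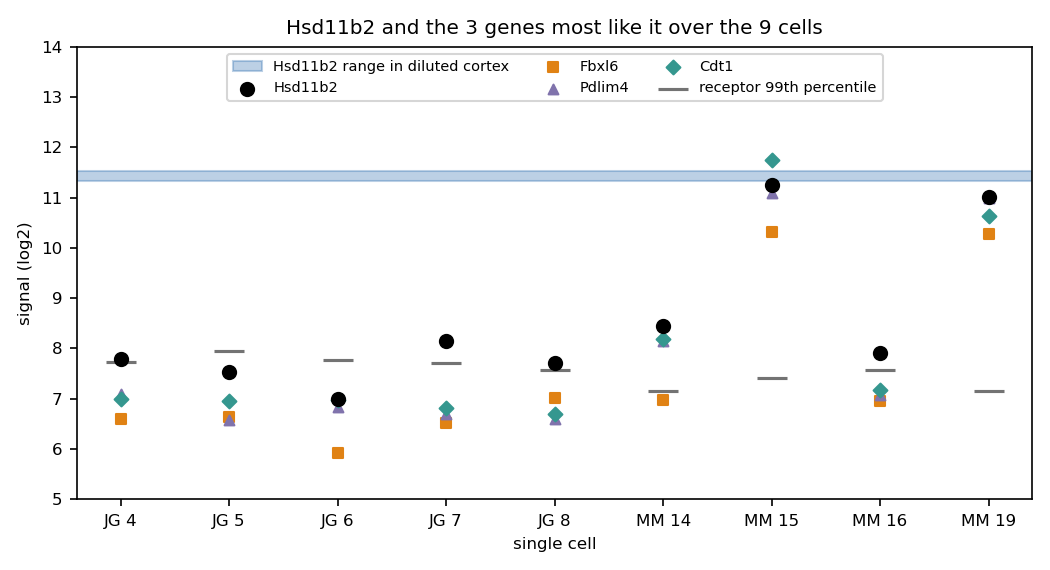
The y axis gives the log2 signal in each of the 9 single cells on the x axis for Hsd11b2 (black) and the 3 genes most like it, with the receptor 99th percentile as grey lines and the range of Hsd11b2 in diluted cortex as a blue band. Hsd11b2 reaches 11.24 in MM cell 15 and 11.01 in MM cell 19, just under the band of 11.34 to 11.54.

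Over all 15 arrays, the gene most like Aqp2 was Amn (Pearson r = 0.99), a partner of the proximal tubule protein receptor cubilin, with means of 8.89 in JG cells, 11.90 in diluted cortex, 7.45 in standard-labelled cortex and 8.38 in MM cells. Aqp2 in turn was among the 3 genes most like Aqp3 (0.98). Scnn1b was most like Agtrap (0.99) and then Prss8 (0.99), Scnn1a most like Cmbl (0.99), Scnn1g most like Nrp1 (0.97), Avpr2 most like Slc16a13 (0.98) and Gata2 most like Dctn1 (0.94). Over 15 arrays Hsd11b2 was most like Tex264 (0.97). The arrays fall into 4 groups with different amplification, so the points share labelling within groups, and these values carry no p.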

How the data were processed

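Labelled RNA of 15 samples was measured on Affymetrix mouse gene arrays. The deposited table holds log2 probe set signals made by the authors with Affymetrix Expression Console, per the submitters' processing notes; its version, summary algorithm and normalization: not given in the sources used here. The log2 scale was read from the values, 2.22 to 13.98 over 35557 probe sets, which were used as deposited. Gene names came from the platform's annotation (probe sets: 21789 with 1 gene symbol, 1621 with several, 12147 unlisted); a gene with several was taken at the brightest. All 10 gene IDs matched RefSeq GRCm38.p6, which also gave the promoter sequences. Arrays carry no count depth, so their number limits precision.

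The genes, lists and comparisons were chosen with earlier results of these data known. All 10 genes are named. Of each list, up to 4 genes with the largest differences could be named, along with genes that check the labels and the 3 genes of highest Pearson correlation to each gene, among genes above background on 3 or more arrays. List genes described cell by cell, and those named beyond this rule, were chosen after their values were seen. Cortex libraries were compared with limma 3.58.1 in R 4.3.3 on probe sets whose higher group mean reached the median of all values, at a Benjamini-Hochberg adjusted p under 0.05; the fit was tested on simulated data. Cells were compared by group means only. The shared letters A, B and C were checked: deviations of same-lettered libraries correlated at 0.174, 0.177 and 0.046, so they were not taken as pairs. Python 3.11.15, numpy 2.4.6, pandas 2.3.3 and matplotlib 3.10.9 were used. Other scalings, filters, background levels and left-out arrays were tried.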

Additional observations from a re-analysis of the deposited data

How the results depend on the processing

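The 6 genes higher in diluted than in standard-labelled cortex numbered 6 under all alternatives run, leaving out each library included; the 1 lower gene, Aqp4, was 0 after either quantile normalization and with probe sets averaged per gene, where Aqp4 was too dim to enter. Over all probe sets, 14599 calls became 7451 with all 4 groups in one fit and 9139 with probe sets averaged, where fewer are tested, and ranged from 13431 to 14342 with 1 library left out. In the main fit 7430 of 19531 probe sets tested were called higher, and 3583 with all 4 groups in one fit. Without the filter 7671 of 35557 were higher, and with probe sets averaged 5281 of 11241, where 8 members were tested. With the letters as a replicate block the calls numbered 14631 and the members called stayed 6 and 1. Each library correlated best with its own letter, a hint from the data, not the design. Scnn1a turned to -0.087 and -0.069 under quantile normalization over 6 and 15 arrays and to -0.084 without standard-labelled library A, the lowest of a range up to 0.22 with 1 library left out; the cause was not tested.

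With standard-labelled in place of diluted cortex, the genes below the shift in JG cells numbered 5 instead of 8, and the plain differences of Aqp2, Aqp3 and Gata2 turned to 1.30, 1.12 and 0.77 (0.32, 0.14 and -0.22 beyond the shift); those above it against MM cells numbered 4 instead of 8, and the plain differences of Aqp2, Aqp3, Hsd11b2 and Gata2 turned to -0.78, -0.81, -1.99 and -0.55 (0.00028, -0.022, -1.21 and 0.23 beyond the shift). The cause was not tested. Quantile normalization gave 5 against MM cells and 6 in JG cells against diluted cortex, where Aqp2 was -1.83, Aqp3 -0.20 and Gata2 turned to 0.19. The shares of all genes under that scaling are not given here. Measured against the highest receptor instead of the 99th percentile, 0 genes were above background in all 3 standard-labelled libraries, 1 in at least 1 JG cell and 1 in at least 1 MM cell, against 8, 4 and 4. In diluted cortex libraries A, B and C, 6, 7 and 7 genes of the set exceeded the highest receptor. The share of all genes past it is not given here, so these counts are not read as particular to the set.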
